A study of Homo sapiens with 2 samples.

Results

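The genes described here are 10 genes of the stress response run by the transcription factor ATF4, listed by name and looked up in a table of 40205 gene rows: ATF4, DDIT3, TRIB3, ASNS, CHAC1, VLDLR, CEBPB, PPP1R15A, STC2 and CTH. All 10 had a row. Levels were measured in RKO, a line derived from a human colon carcinoma, in cells collected 48 h after siRNA transfection. The control group received a control siRNA, and the other an siRNA that targets SRSF1, a regulator of pre-mRNA splicing. Each group held 1 library, so no difference below has a replicate check, and the interval given beside a ratio covers the error of counting fragments only. Levels are FPKM, the fragments of a gene per kilobase of gene model, relative to all fragments counted in that library. The control siRNA library is called the control library below, and the library of cells given the siRNA against SRSF1 the SRSF1-depleted library.

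ATF4 is a basic leucine zipper factor of the integrated stress response. Kinases that sense unfolded protein in the endoplasmic reticulum, lack of amino acids, viral RNA or lack of heme phosphorylate the translation factor eIF2, general protein synthesis drops, and the ATF4 mRNA is then translated past its short upstream reading frames. ATF4 pairs with C/EBP factors and switches on genes for amino acid supply, for redox balance and for shutting the response off again. Because ATF4 is controlled largely in translation, its mRNA level is not a measure of ATF4 protein, and the mRNA of its target genes is the usual readout. The comparison asks whether these transcripts differ once SRSF1 is depleted.

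The control and SRSF1-depleted libraries held 64651910 and 61879680 reads, of which 70.4% and 75.9% mapped. The targeted gene SRSF1 was at 103 FPKM in the control and at 32.7 FPKM in the SRSF1-depleted library, or 31.7% of control (95% counting interval of the ratio 0.306 to 0.328). Of 7 markers of colon epithelium, 4 had a mean of at least 1 FPKM (EPCAM, KRT8, KRT18 and CDX2), and CDH1, KRT20 and VIL1 were listed at 0 in both libraries. The summed level of these markers was 115 FPKM and 110 FPKM. None of 15 markers of leukocytes, fibroblasts and endothelium reached a mean of 1 FPKM, and 11 of them were listed at 0 in both libraries. As these are bulk samples, fewer cells with a transcript and less of it per cell cannot be told apart.

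Of the 10 genes, 7 had a mean of at least 1 FPKM and are called expressed, and none of these 7 differed by 1.5-fold between the libraries. ATF4, ASNS and PPP1R15A were at 1.24 to 1.30 times their control level with counting intervals above 1, and CEBPB was at 0.846 times with an interval below 1. DDIT3, TRIB3 and CTH had intervals that included 1. CHAC1 was close to the detection limit, and VLDLR and STC2 were listed at 0 in both libraries. Across all 11274 rows with a mean of at least 1 FPKM, 1.22% were at least 1.5-fold higher and 4.3% at least 1.5-fold lower on the log2(FPKM + 1) scale, so 0 of 7 is close to that background. Intervals lay above 1 for 19.5% of all these rows and below 1 for 34.5%, against 3 and 1 of the 7. The median difference in log2(FPKM + 1) was 0.10 over the 7 genes and -0.06 over all rows, depleted minus control.

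**Figure D1:**
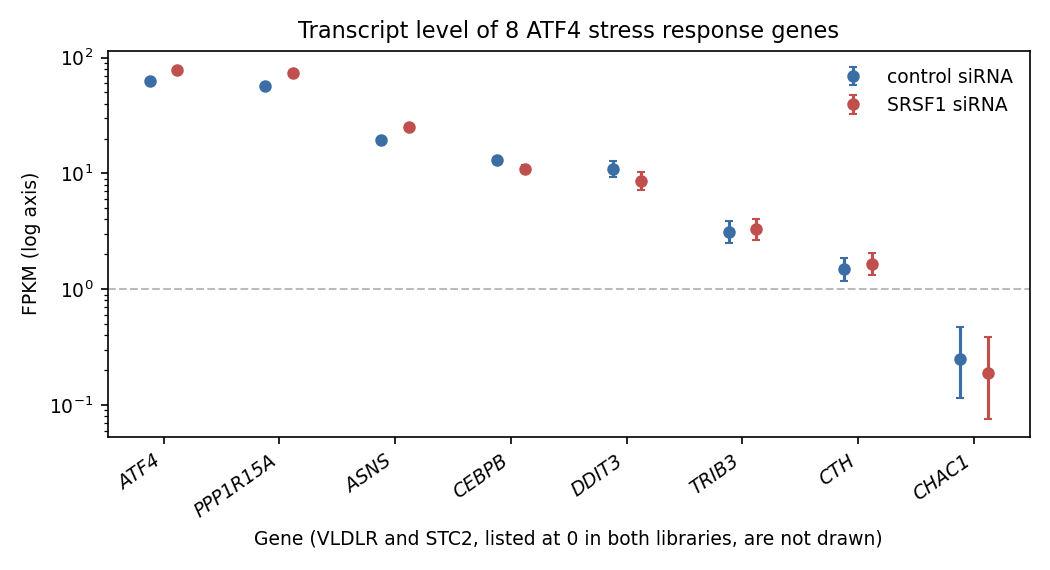
Points are FPKM in the control siRNA library (blue) and the SRSF1-depleted library (red), 1 library each, on a log axis, with exact 95% Poisson intervals for counting error, many smaller than the point. The 8 detected genes keep the same order in both libraries, from ATF4 at 63.2 and 78.3 FPKM to CHAC1 at 0.249 and 0.188 FPKM, below the dashed line at 1 FPKM.

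The levels of the 8 detected genes spanned a wide range and had the same order in both libraries. ATF4 was highest, followed by PPP1R15A, ASNS, CEBPB, DDIT3, TRIB3, CTH and CHAC1. CEBPB and DDIT3 were neighbours whose counting intervals overlapped in both libraries (11.9 to 14.0 and 9.25 to 12.8 FPKM in the control library). All other neighbours in this order were separate within each library. ATF4 exceeded 90.7% of the expressed rows in the control and 93.2% in the SRSF1-depleted library, whereas CTH exceeded 5.56% and 8.93%.

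Promoter windows are shown for the 3 genes whose window held a binding motif of this pathway, since these motifs are the link between ATF4-type factors and their targets. The composite element TGATGNAAN joins a C/EBP and an ATF half-site and was searched on both strands. The cyclic AMP response element TGACGTCA, bound by ATF and CREB factors, reads the same on both strands. Each window is 30 bases of the RefSeq promoter table (GRCh38.p14), 5′ to 3′ on the strand of the gene, with the motif in capitals.
ASNS, composite element, chr7:97872457-97872486, minus strand: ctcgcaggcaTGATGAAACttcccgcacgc
CHAC1, composite element on the opposite strand, chr15:40953251-40953280, plus strand: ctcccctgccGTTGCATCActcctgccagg
PPP1R15A, cyclic AMP response element, chr19:48872352-48872381, plus strand: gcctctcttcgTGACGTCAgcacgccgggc
The motif begins 68 bases before the RefSeq transcript start in ASNS, 210 in CHAC1 and 58 in PPP1R15A. GENCODE 29 places the start of ASNS at 97872542 (minus strand) and that of CHAC1 at 40952962 (plus strand). Both windows therefore lie inside the GENCODE gene spans. Windows from 250 bases before to 50 after a start were available for all 10 genes. TGATGNAAN was found in 3.61% of all 35116 windows and in those of 2 of the 10 genes, and TGACGTCA in 1.85% of windows and in those of 1 of the 10. The ER stress response element, searched on both strands, was in none of the 10 and in 0.0769% of windows. A match is a description of letters and was not tested as a binding site.

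ATF4 itself was at 63.2 FPKM in the control and 78.3 FPKM in the SRSF1-depleted library, on 2959 and 3774 fragments. It was therefore higher after SRSF1 depletion, at 1.24 times control (counting interval 1.18 to 1.30), and 7.18% of expressed rows had a log2(FPKM + 1) difference at least as high as its 0.30. The gene lies on chromosome 22, from 39519695 to 39522685 on the plus strand (GENCODE 29, GRCh38), and its longest annotated transcript has 2 exons. ATF4 has processed pseudogenes that could share reads. Of the 4 with a row, ATF4P3 was at 0.213 and 0.324 FPKM, ATF4P4 at 0.0610 and 0.0296 FPKM, and ATF4P1 and ATF4P2 were listed at 0, far below the level of the gene.

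The other members that are transcription factors, DDIT3 and CEBPB, lay on the lower side. DDIT3 encodes CHOP, a C/EBP family factor that ATF4 induces and that promotes death under lasting stress. It was at 10.9 FPKM in the control and 8.61 FPKM in the SRSF1-depleted library, or 0.788 times (0.615 to 1.01), so the lower value did not exceed counting error on the 149 and 121 fragments recovered. These counts are the smallest that fit the FPKM values. At the whole multiple nearest the annotated transcript length, 298 and 242 fragments, the interval was 0.662 to 0.937. DDIT3 is encoded on chromosome 12, from 57516588 to 57521737, minus strand, and its exons overlap those of a coding gene of the same strand and of MARS and MBD6 on the opposite strand. Whether counting used strand is not given in the sources used here, so the DDIT3 value is uncertain.

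CEBPB encodes C/EBPβ, a dimer partner of ATF4 at composite elements. It was at 12.9 FPKM in the control and 10.9 FPKM in the SRSF1-depleted library, on 631 and 550 fragments, which is 0.846 times (0.753 to 0.949). The interval excludes equal levels, but 26.5% of expressed rows had a difference as low or lower than its -0.22. CEBPB, on chromosome 20 from 50190734 to 50192689, is the only member with 1 exon and so no intron in GENCODE 29. An antisense gene overlaps it on the opposite strand, which makes its value uncertain as well.

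Relative to ATF4, both factors were lower after SRSF1 depletion. The FPKM of DDIT3 was 0.173 of that of ATF4 in the control and 0.110 in the SRSF1-depleted library, a ratio of ratios of 0.637 (conditional exact 95% counting interval 0.494 to 0.819). For CEBPB the values were 0.205 and 0.140, with a ratio of ratios of 0.683 (0.602 to 0.775). For ASNS and PPP1R15A relative to ATF4 the ratios of ratios were 1.04 (0.943 to 1.14) and 1.05 (0.981 to 1.12), with intervals that included 1. The DDIT3 and CEBPB values are uncertain as described above, and the DDIT3 counts used here are the smallest that fit. These pairs were chosen after their values were seen.

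Of the genes that turn the response down, PPP1R15A had the highest ratio of the 8 detected members. It encodes GADD34, the subunit that directs protein phosphatase 1 to phosphorylated eIF2. PPP1R15A was at 56.5 FPKM in the control and 73.4 FPKM in the SRSF1-depleted library, on 3116 and 4171 fragments. The higher level amounted to 1.30 times (1.24 to 1.36). The intervals of ATF4 and ASNS overlapped this one, so the order of these genes by ratio was not resolved. On the log2(FPKM + 1) scale the difference of PPP1R15A was 0.37, which 4.48% of expressed rows reached or exceeded. The gene lies on the plus strand of chromosome 19 from 48872392 to 48876057, with 3 exons, and no other annotated exon overlaps it.

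TRIB3 is a pseudokinase that ATF4 and CHOP induce and that restrains them in return, and that also binds the kinase AKT. It was at 3.14 FPKM in the control and 3.28 FPKM in the SRSF1-depleted library, or 1.05 times (0.776 to 1.41). The libraries could not be told apart for TRIB3 on 89 and 96 fragments. With counts at the multiple nearest its annotated length the interval was 0.849 to 1.29, and it again included 1.

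**Figure D2:**
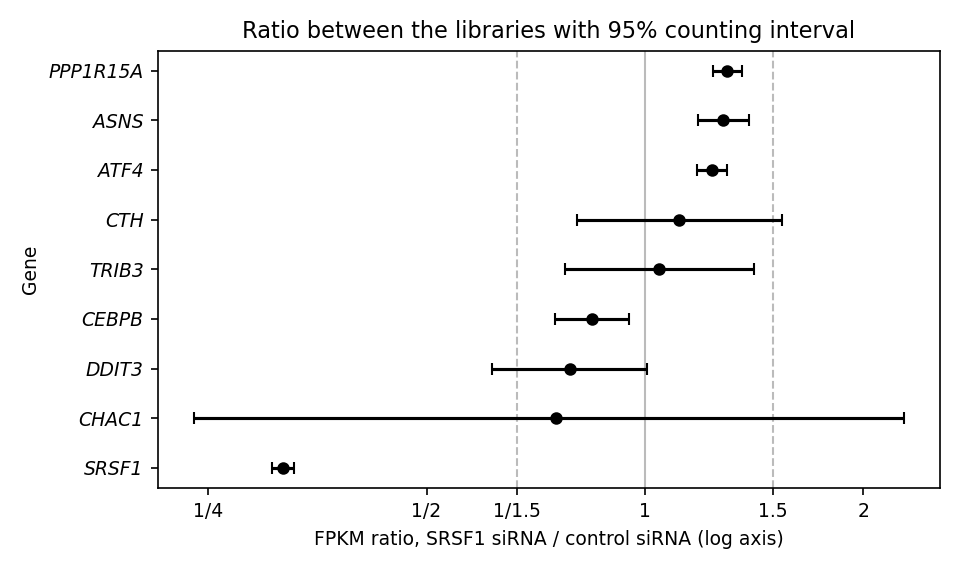
Points are the FPKM ratio of the SRSF1-depleted library to the control library on a log axis, and bars are exact 95% counting intervals; dashed lines mark 1.5-fold in either direction. SRSF1 stands at 0.317, CEBPB at 0.846, ATF4, ASNS and PPP1R15A between 1.24 and 1.30, and the interval of CHAC1 runs from 0.239 to 2.28.

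Among the metabolic members, ASNS makes asparagine from aspartate and glutamine and is a standard target of ATF4 through the composite element printed above. It was at 19.5 FPKM in the control and 25.0 FPKM in the SRSF1-depleted library, on 1064 and 1406 fragments. This was 1.28 times (1.18 to 1.39), and 5.46% of expressed rows had a difference at least as high as its 0.34. ASNS is encoded on chromosome 7, from 97852118 to 97872542, minus strand, with 14 exons in its longest transcript. A noncoding transcript on the same strand overlaps its exons, so that its reads could be counted with ASNS. Of its pseudogenes, ASNSP1, ASNSP3 and ASNSP4 were listed at 0 in both libraries.

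CTH, cystathionine gamma-lyase, releases cysteine in the transsulfuration pathway. It was at 1.49 FPKM in the control and 1.67 FPKM in the SRSF1-depleted library, or 1.11 times (0.806 to 1.54), and the 74 and 85 fragments behind it leave either direction possible. CBS, the enzyme before it in the pathway, was listed at 0 in both libraries. CHAC1 breaks down glutathione and carries the composite element printed above. It was at 0.249 FPKM in the control and 0.188 FPKM in the SRSF1-depleted library on 9 and 7 fragments, so that its ratio of 0.755 (0.239 to 2.28) says little about direction.

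VLDLR, a lipoprotein receptor that stress can induce through ATF4, and STC2, a secreted stanniocalcin induced by the same route, were listed at 0 in both libraries. With 3 fragments as the limit that a count of 0 allows, and the longest transcript in GENCODE 29 as length, VLDLR was below 0.0142 FPKM in the control and below 0.0137 FPKM in the SRSF1-depleted library. The corresponding limits for STC2 were 0.0242 and 0.0235 FPKM. A shorter gene model, whose length cannot be recovered for a row at 0, would give higher limits. No fold can be given for either gene.

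STC1 and CHAC2, the paralogs of STC2 and CHAC1, were expressed. STC1 was at 235 FPKM in the control and 281 FPKM in the SRSF1-depleted library, 1.20 times (1.17 to 1.22), while STC2 was listed at 0. CHAC2, which also acts on glutathione, was at 36.5 and 25.8 FPKM, 0.707 times (0.644 to 0.776), and exceeded CHAC1 by 146 times in the control and 137 times in the SRSF1-depleted library. Both of these folds are rough, as they rest on only 9 and 7 CHAC1 fragments. TRIB1 was at 23.0 and 18.4 FPKM, or 0.797 times (0.745 to 0.852), and TRIB2 stayed below 1 FPKM. PPP1R15B, the constitutive partner of phosphatase 1 at eIF2, was at 18.2 and 22.0 FPKM, which is 1.20 times (1.14 to 1.27). PPP1R15A stood at 3.10 times the level of PPP1R15B in the control and at 3.34 times in the SRSF1-depleted library. The ratio of ratios was 1.08 (1.003 to 1.16), for a pair also chosen after its values were seen.

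The C/EBP and ATF relatives did not share a direction. CEBPG, another dimer partner of ATF4, was at 18.4 and 22.0 FPKM, 1.19 times (1.12 to 1.28), whereas CEBPD was at 11.8 and 7.81 FPKM, 0.663 times (0.559 to 0.785). CEBPG thus stood at 1.42 times the level of CEBPB in the control and at 2.01 times in the SRSF1-depleted library. The ratio of ratios was 1.41 (1.24 to 1.62). This pair, too, was chosen after its values were seen, and the CEBPB value is uncertain as described above. CEBPA was at 1.02 times (0.733 to 1.43). ATF5, the closest relative of ATF4, was at 0.779 times (0.540 to 1.12) on 71 and 57 fragments. These counts, at a fitted length of 325 bases, are the smallest that fit, and no larger multiple was tried.

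In the receptor family of VLDLR, LRP8 was on the higher side, at 1.27 times (1.20 to 1.35). LRP6 was at 1.08 times (1.01 to 1.16). LRP1, LRP4 and LRP5 were at 0.857, 0.872 and 0.863 times, and LRP2 was listed at 0. MPST, which handles sulfur next to CTH, was at 0.709 times (0.615 to 0.816). None of the 15 expressed genes in the list of paralogs passed the 1.5-fold limit on the log2(FPKM + 1) scale. CEBPD did so as a ratio of FPKM. The median difference of the list was -0.15, against -0.06 over all rows. The list includes MPST, which is not a paralog of a member. Without MPST the median would lie between the -0.15 of LRP4 and the 0.02 of CEBPA.

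**Figure D3:**
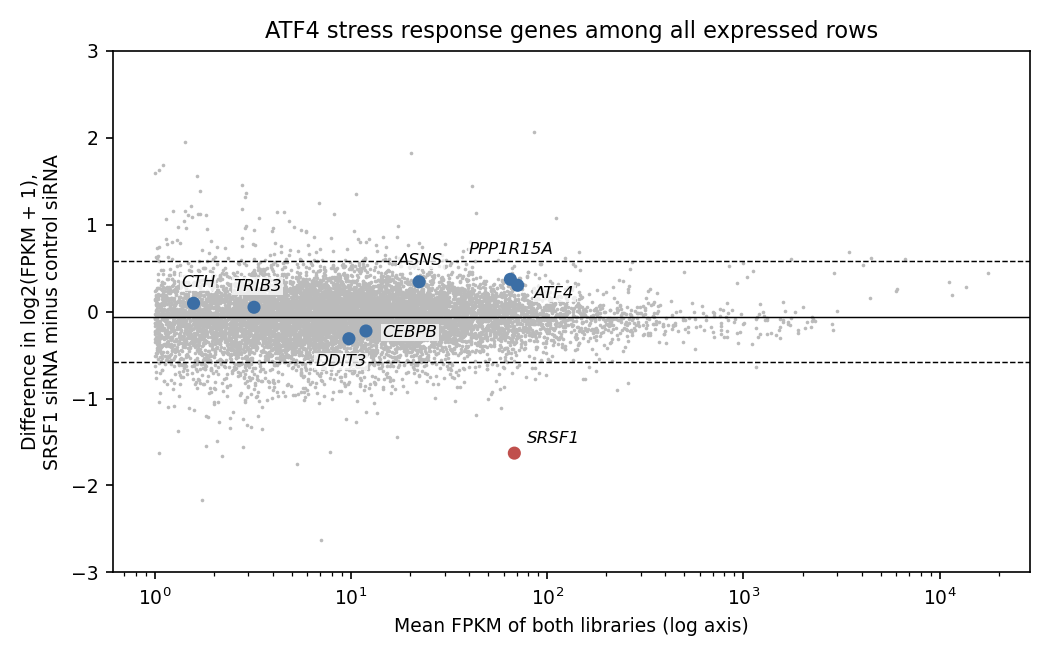
Each grey point is 1 of 11274 rows with a mean of at least 1 FPKM, blue points are the 7 expressed ATF4 stress response genes and the red point is SRSF1; the x axis is mean FPKM (log) and the y axis the log2(FPKM + 1) difference, depleted minus control. Dashed lines mark 1.5-fold and the solid line the median of -0.06; all 7 blue points lie between the dashed lines, and SRSF1 at -1.63 lies far below.

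Upstream of ATF4, the listed genes for eIF2, its kinases and phosphatases, the exchange factor eIF2B, and regulators and related factors were all expressed. Of these 25 genes none was at least 1.5-fold higher and 3 were at least 1.5-fold lower, against 1.22% and 4.3% of all rows, with a median log2(FPKM + 1) difference of -0.03. IMPACT, an inhibitor of the amino acid sensing kinase GCN2, was at 12.2 FPKM in the control and 7.34 FPKM in the SRSF1-depleted library, 0.603 times (0.547 to 0.666). OMA1, the mitochondrial protease that relays mitochondrial stress to eIF2 kinase HRI, was at 6.49 and 3.92 FPKM, 0.605 times (0.435 to 0.837). EIF2B3, a subunit of the eIF2B catalytic complex, was at 10.4 and 6.58 FPKM, 0.632 times (0.547 to 0.730). PPP1CC, a catalytic subunit of phosphatase 1, was at 66.8 and 83.5 FPKM, 1.25 times (1.20 to 1.30).

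The eIF2 kinases themselves, named after their values were seen, differed less. EIF2AK3, the endoplasmic reticulum kinase PERK, was at 0.831 times (0.733 to 0.941) and EIF2AK1, the heme sensing kinase HRI, at 0.917 times (0.880 to 0.955). EIF2AK2, the RNA sensing kinase PKR, was at 1.20 times (1.14 to 1.26), and EIF2AK4, the kinase GCN2, at 1.05 times (0.998 to 1.10).

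The list of other basic leucine zipper factors held 29 expressed genes, of which CEBPZ is not such a factor despite its symbol. None of the 29 reached 1.5-fold in either direction on the log2(FPKM + 1) scale, and the median difference was 0.01. ATF2 was at 1.34 times (1.21 to 1.48) and ATF6B, a paralog of the stress sensor ATF6, at 1.26 times (1.13 to 1.40). CEBPD and ATF5, given above, lay lowest on that scale, at -0.54 and -0.32, and the ratio of CEBPD was past 1.5-fold. Factors that act on translation or turnover of ATF4 had a median of -0.04 over 13 genes, with none past 1.5-fold. MCTS1, a reinitiation factor, was at 0.595 times (0.518 to 0.684), short of the limit on the log2(FPKM + 1) scale because of its low level of 2.39 and 1.42 FPKM. CUL1, of the ligase that degrades ATF4, was at 1.12 times (1.09 to 1.16), RBX1 at 0.897 times and NEK6 at 0.865 times.

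Further target genes of ATF4 lay on both sides of their control levels. Of 11 expressed genes of amino acid synthesis none reached 1.5-fold, and the median was -0.16. GOT1, the cytosolic aspartate aminotransferase, was at 7.99 FPKM in the control and 11.6 FPKM in the SRSF1-depleted library, 1.45 times (1.28 to 1.66). The folate enzyme MTHFD2 was at 1.18 times (1.14 to 1.23), while PSAT1 of serine synthesis was at 0.801 times (0.721 to 0.888) and SHMT2, which links serine to folate, was at 0.739 times. ASNS and the serine enzymes PSAT1 and SHMT2 were thus on different sides of their control levels.

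The 10 expressed amino acid transporters had a median of -0.11 and none passed 1.5-fold on the log2(FPKM + 1) scale. SLC38A2, a stress-induced carrier of neutral amino acids, was at 111 FPKM in the control and 83.7 FPKM in the SRSF1-depleted library, 0.753 times (0.725 to 0.781). SLC1A5, the glutamine carrier, was at 0.817 times (0.777 to 0.860) and SLC38A1 at 1.16 times (1.09 to 1.22). SLC43A1, at 5.05 and 3.04 FPKM, was past 1.5-fold as a ratio of FPKM, at 0.603 times (0.460 to 0.788), but short of it on the log2(FPKM + 1) scale, at -0.58. Of 13 genes of tRNA charging, with a median of 0.05, only XPOT was at least 1.5-fold lower. XPOT, the exporter of tRNA from the nucleus, was at 60.8 and 38.0 FPKM, 0.626 times (0.600 to 0.653). The synthetases EPRS and YARS were at 1.13 and 1.13 times and LARS at 0.860 times.

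Stress feedback and secreted targets had a median of -0.02 over 18 genes, with none at least 1.5-fold higher and 1 lower. That was DDIT4, which restrains mTORC1, at 6.66 and 3.23 FPKM. NDRG1 was at 0.716 times (0.639 to 0.803), the growth arrest gene GADD45A at 0.756 times (0.696 to 0.820) and the autophagy gene ATG5 at 1.35 times (1.24 to 1.47). Targets of the XBP1 and ATF6 branches of the unfolded protein response, which run beside ATF4, had a median of -0.02 over 20 genes, and none reached 1.5-fold. The chaperone gene CALR was at 825 and 1038 FPKM, 1.26 times (1.24 to 1.28), and DNAJB9, a co-chaperone, was at 13.3 and 17.8 FPKM. EDEM2, of the disposal of misfolded glycoproteins, was at 0.692 times (0.572 to 0.836), and CRELD2 was at 10.4 and 7.72 FPKM.

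**Figure D4:**
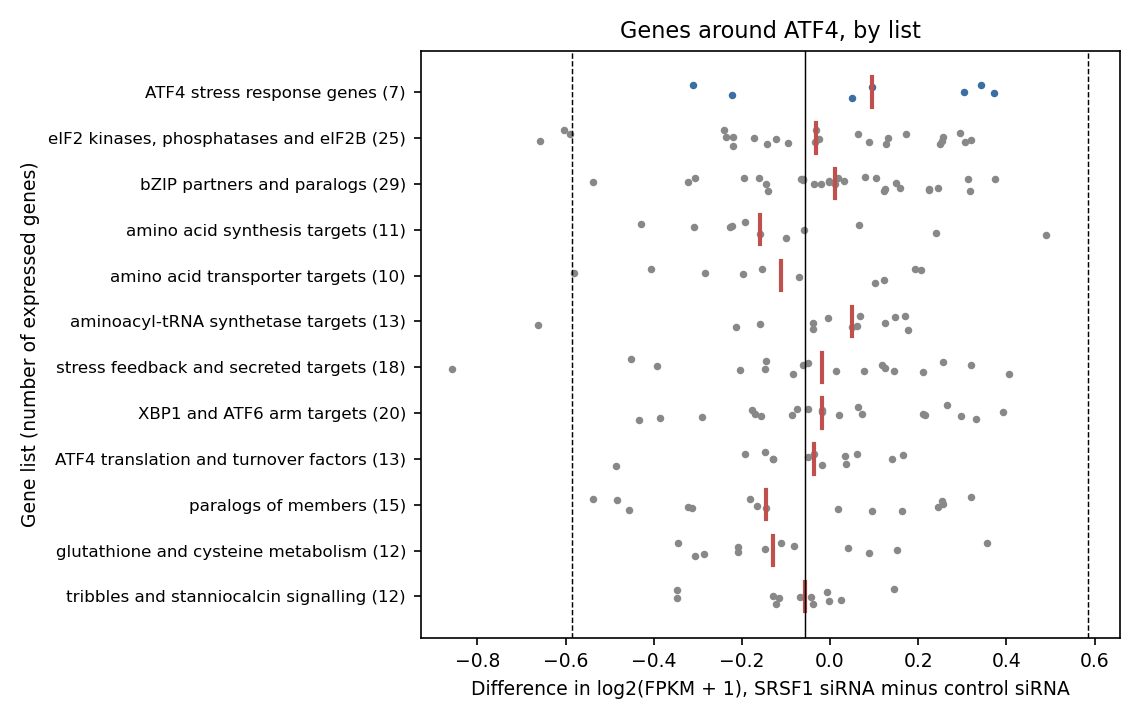
Points are genes with a mean of at least 1 FPKM, placed by the log2(FPKM + 1) difference, depleted minus control, and grouped by list with the number of genes in brackets; red bars are list medians, the solid line is the median of all rows and dashed lines mark 1.5-fold. No point lies beyond the upper dashed line, and 5 genes, DDIT4, XPOT, IMPACT, OMA1 and EIF2B3, lie beyond the lower one.

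The glutathione and cysteine genes around CHAC1 and CTH had a median of -0.13 over 12 expressed genes, and none reached 1.5-fold. AHCYL1 was at 1.29 times (1.23 to 1.35), while AHCY, which breaks down S-adenosylhomocysteine, MAT2B, a subunit of the S-adenosylmethionine synthetase, and GGCT were at 0.806, 0.783 and 0.818 times. Signalling partners of TRIB3, STC2 and VLDLR had a median of -0.06 over 12 genes, with none past 1.5-fold. AKT1, bound by TRIB3, was at 0.780 times (0.734 to 0.828), and LRPAP1, the chaperone of the VLDLR receptor family, at 0.769 times (0.729 to 0.811). MAP2K4 was at 1.12 times. Over the 11 lists together, 0 of 173 expressed genes were at least 1.5-fold higher and 5 (2.89%) at least 1.5-fold lower on the log2(FPKM + 1) scale, against 1.22% and 4.3% of all rows. The count on the lower side was 8 with a pseudocount of 0.1 in place of 1, and 3 under quantile normalization.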

How the data were processed

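Transcript levels came from 2 libraries, 1 per group, assigned by their labels. The deposited table held 1 FPKM value per gene and library, made by the authors. The submitters' processing notes name Bowtie 0.12.2 and build hg19. How fragments were counted, on which annotation and with which strand setting is not given in the sources used here. A deposited mapping summary gave read counts per library, per the file headers.

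Differences are in log2(FPKM + 1), which understates changes at low levels, over rows with a mean of at least 1 FPKM. Ratios are plain FPKM ratios. Whole fragment counts were recovered from the library totals, 23138519 (control siRNA) and 23852089 (SRSF1 siRNA), that made 16234 of 16235 rows above 0 in both libraries whole within a relative tolerance of 2e-12. They are the smallest that fit, so an interval can be wider than the true counts would give. Larger multiples were tried for the expressed members only. Intervals are exact (Clopper-Pearson on the sum of both counts, Poisson for levels, conditional for ratios of ratios), at 95%, and PCR copies are not independent molecules. Signals at 0 were bounded by 3 fragments. No p-values were calculated. Recovery of totals and counts, the ratio interval and the 1.5-fold limit were tried on simulated data. There the interval was taken on the simulated counts, not on recovered ones. The other steps were not tried on simulated data.

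The genes, the 11 pathway lists and the rules were chosen with earlier results of these data known. Named were all 10 genes, SRSF1, the expressed genes in the list of paralogs and, from each list, the 4 genes with the largest difference. Annotation was GENCODE 29 (GRCh38), used only to locate genes and give lengths. Older symbols were matched through RefSeq synonyms. Promoter windows were matched by symbol or gene ID to 83.2% of expressed mRNA rows. Python 3.11.15, SciPy 1.17.1 and statsmodels 0.14.6 were used. Some of the genes so chosen are not reported here.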

Additional observations from a re-analysis of the deposited data

How the results depend on the processing

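With a pseudocount of 0.1, quantile normalization, columns rescaled to the same sum, or a lowess trend on gene model length removed, all 7 expressed ATF4 stress response genes kept their direction, and none reached 1.5-fold. Quantile normalization moved ATF4 and PPP1R15A to differences of 0.37 and 0.44 in log2(FPKM + 1), close to the upper ends of their counting intervals. The median over all rows went from -0.06 to 0.01 under this setting. The median of the genes ranged from 0.07 with no filter on low values to 0.30 with a mean of at least 5 FPKM, which left 5 genes. Among the pathway lists, 5 genes were at least 1.5-fold lower, against 8 with a pseudocount of 0.1 and 3 under quantile normalization, and none was higher under any of the alternatives. With counts at the multiple nearest the annotated length, 2 members instead of 1 had an interval below 1, the second being DDIT3. The alternatives for the lists and the multiples were chosen after seeing the data. No paired analysis was possible because each group had 1 library, and for the same reason no library could be left out. Counts limit DDIT3, TRIB3, CTH and CHAC1 most.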

Other observations

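The composite C/EBP-ATF element was also looked for beyond the listed genes. Of 8374 expressed mRNA rows with a promoter window, 209 held TGATGNAAN on either strand, and their median difference in log2(FPKM + 1) was -0.03, against -0.06 over all rows with a window. At least 1.5-fold higher were 2 of the 209 and lower were 5. The 341 rows with TGACGTCA had a median of -0.05, with 4 higher and 11 lower. Over all 11274 expressed rows, with or without a window, 1.22% were higher and 4.3% lower by this measure. The 15 rows with the ER stress response element had a median of 0.03 and none past 1.5-fold.

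The protein-coding rows most like ATF4, by Euclidean distance in log2(FPKM + 1) over only 2 libraries, were NUP188 (62.3 and 76.2 FPKM), TRIP12 (61.2 and 76.6 FPKM) and CAPRIN2 (62.0 and 81.0 FPKM), at distances of 0.043 to 0.057. Those most like PPP1R15A were PRPF38A (57.0 and 72.8 FPKM), DDX39B (58.6 and 72.8 FPKM) and ELL2 (55.6 and 76.0 FPKM), at 0.016 to 0.055.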
